A study of Homo sapiens with 9 samples.

Results

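The genes described are HMGCS1, IDI1, FDFT1, SQLE, DHCR7, TM7SF2 and INSIG1, which act in cholesterol synthesis and in the sensing of sterols. They were chosen by symbol with earlier results of these data known, so their counts beside those of all probe sets are descriptions only. Every probe set that the platform annotation pairs with 1 of these symbols was taken. This gave 13 probe sets of 22215 tested and 6 genes of 11963 with a probe set of their own. FDFT1 is not analysed here. RNA levels come from Affymetrix arrays of LNCaP, an androgen-responsive human prostate cancer cell line. The first group received 20 µM gedunin, a natural product of the neem tree family known to impair the chaperone HSP90, together with 1 nM of the synthetic androgen R1881, for 24 h. A second group is labelled as R1881 at 1 nM with DMSO, for 6 h by its titles and 24 h by its protocol, so its time is not settled. The third is labelled as the solvents ethanol and DMSO for 24 h, called vehicle below. Each group has 3 arrays marked as biological replicates, and all cells had first spent 2 days in RPMI with 10% charcoal-stripped serum, which is poor in steroids. No group had gedunin without R1881, and all groups are 1 cell line.

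Array medians lay between 52.4 and 54.5 on the intensity scale. The androgen-induced genes go against the labels. KLK3, the gene of prostate-specific antigen, averaged 7215 ± 384 on the gedunin plus R1881 arrays, 1341 ± 104 under the R1881 label and 11839 ± 513 under the vehicle label (intensity, SD, n = 3 each), and KLK2 and TMPRSS2 had this order too. FKBP5 averaged 122 ± 16.0 on the gedunin plus R1881 arrays, 45.1 ± 3.15 under the R1881 label and 1815 ± 147 under the vehicle label. Groups are therefore named by their labels, and each direction that involves the R1881 or the vehicle label rests on labels that these genes contradict. Exchanging these labels would turn the sign of the first comparison below and would make the third one the test of gedunin beside androgen. Of 8 luminal prostate markers 6 were measured, and all 6 (KLK3, KLK2, FOLH1, HOXB13, KRT8 and KRT18) averaged above the lowest array median of 52.4. The basal keratins KRT5 and KRT14 were at 17.4 to 40.4 on every array. Of the other 5 markers of fibroblasts and leukocytes measured, COL1A1, PDGFRB and CD3E averaged above that median. The lowest adjusted p of these 7 basal, fibroblast and leukocyte genes over the 3 comparisons was 0.0541 (KRT5, limma, labelled R1881 against labelled vehicle), and 2 of their tests had an unadjusted p under 0.05. The part of other cells in the results was not tested, and in bulk RNA fewer cells of a type and less RNA per cell cannot be told apart.

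Cells make cholesterol from acetyl-CoA through the mevalonate pathway, which yields isoprenoid units, then squalene, and then a chain of sterol intermediates. When sterols in the endoplasmic reticulum (ER) are low, the escort protein SCAP carries the membrane-bound SREBP transcription factors to the Golgi, where the proteases encoded by MBTPS1 and MBTPS2 release them. The freed SREBPs switch on most genes of the pathway and INSIG1, whose product holds SCAP in the ER when sterols are plentiful and so closes a feedback loop. In prostate cells androgens are known to raise lipid synthesis genes, in part through SCAP, and cholesterol is itself the starting material of steroid hormones. Among the members, HMGCS1 makes HMG-CoA, IDI1 interconverts the isoprenoid units, FDFT1 makes squalene and SQLE oxidises it. TM7SF2 reduces the C14 double bond of a sterol intermediate, and DHCR7 reduces 7-dehydrocholesterol to cholesterol.

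Promoter sequence is shown for HMGCS1, IDI1, DHCR7 and INSIG1, whose levels moved together, and for TM7SF2, which moved the other way. SQLE moved with the former but is not shown, nor is FDFT1. RefSeq windows (GRCh38.p14) were thus taken for 5 of the 7 members, and the 250 bases before a transcription start are printed 5′ to 3′ on the gene's strand. Capitals mark matches, on either strand, to CCAAT, read as ATTGG from the opposite strand, the core of NF-Y sites, and to CACNCCA, read as TGGNGTG from the opposite strand, a core found in many SREBP sites. These motifs were picked after the sequences and the earlier results were known. Where a gene has several listed starts, windows that hold another of its starts were set aside and the one with most CCAAT matches is shown. The windows are HMGCS1 at chr5:43313413-43313662 (minus strand, 2 starts listed), IDI1 at chr10:1049120-1049369 (minus, 3 starts), DHCR7 at chr11:71448394-71448643 (minus, 2 starts), TM7SF2 at chr11:65111622-65111871 (plus, 1 start) and INSIG1 at chr7:155297628-155297877 (plus, 1 start).
HMGCS1: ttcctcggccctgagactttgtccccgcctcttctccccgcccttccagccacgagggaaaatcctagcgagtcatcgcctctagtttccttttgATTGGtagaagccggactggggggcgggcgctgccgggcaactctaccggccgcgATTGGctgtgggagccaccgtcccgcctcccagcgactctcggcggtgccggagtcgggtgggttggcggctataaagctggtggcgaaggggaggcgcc
IDI1: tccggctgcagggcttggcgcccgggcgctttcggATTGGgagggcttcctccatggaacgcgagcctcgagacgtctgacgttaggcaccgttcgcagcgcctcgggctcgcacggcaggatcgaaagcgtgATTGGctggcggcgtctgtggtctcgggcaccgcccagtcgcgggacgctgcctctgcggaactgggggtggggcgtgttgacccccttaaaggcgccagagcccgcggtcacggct
DHCR7: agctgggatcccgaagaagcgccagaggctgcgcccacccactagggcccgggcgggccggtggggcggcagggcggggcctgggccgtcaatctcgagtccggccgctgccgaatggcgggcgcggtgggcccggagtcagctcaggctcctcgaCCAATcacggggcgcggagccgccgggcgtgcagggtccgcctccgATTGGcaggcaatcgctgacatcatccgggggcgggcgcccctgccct
TM7SF2: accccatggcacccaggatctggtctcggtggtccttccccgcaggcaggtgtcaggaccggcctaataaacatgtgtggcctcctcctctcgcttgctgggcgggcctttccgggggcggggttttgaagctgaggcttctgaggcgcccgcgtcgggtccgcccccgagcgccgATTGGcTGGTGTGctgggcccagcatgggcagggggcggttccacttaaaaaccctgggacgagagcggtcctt
INSIG1: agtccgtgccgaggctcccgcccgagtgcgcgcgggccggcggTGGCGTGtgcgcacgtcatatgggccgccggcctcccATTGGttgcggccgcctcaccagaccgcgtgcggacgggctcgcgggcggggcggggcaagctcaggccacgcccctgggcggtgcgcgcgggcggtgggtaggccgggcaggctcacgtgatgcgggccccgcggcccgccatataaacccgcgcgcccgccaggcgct

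HMGCS1 has CCAAT cores starting 155 and 100 bases before the start, IDI1 at 215 and 117, DHCR7 at 94 and 48, TM7SF2 at 74 and INSIG1 at 170. All but the match at 94 in DHCR7 lie on the reverse strand. A CCAAT core was in 32.0% of all 35116 windows of this length. For genes with several starts the shown window was chosen by its CCAAT matches, so this share is not a like comparison. The CACNCCA core was in the shown windows of TM7SF2, at 68, and of INSIG1, at 207, against 14.7% of all windows. In TM7SF2 this core starts just after the CCAAT core and does not overlap it. The half-site AGAACA, read as TGTTCT from the opposite strand and part of androgen receptor elements, was in 12.4% of all windows and in 0 of the 5 shown. A match is a description of letters and not a bound site. Of the windows not shown, that of IDI1 set aside for holding another start had 3 CCAAT cores and 1 CACNCCA core, and those of HMGCS1, DHCR7 and the other IDI1 start had 0 of either.

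HMGCS1, at the head of the pathway, was low only under the R1881 label. Its brighter probe set (221750_at) measured 433, 387 and 383 on the gedunin plus R1881 arrays, 151, 124 and 147 on the arrays labelled R1881, and 351, 386 and 397 on those labelled vehicle. The 3 arrays labelled R1881 lay below the other 6, whose groups overlap. Its second probe set (205822_s_at) lay between 151 and 197 on the gedunin plus R1881 arrays, 56.5 and 74.9 under the R1881 label, and 138 and 177 under the vehicle label. IDI1 too was lowest under the R1881 label, with little scatter. Its brighter probe set (208881_x_at) measured 979, 1010.1 and 979 on the gedunin plus R1881 arrays, 344, 343 and 311 on the arrays labelled R1881, and 1051, 1126 and 1092 on those labelled vehicle. The arrays labelled R1881 were lowest and the gedunin arrays fell just short of those labelled vehicle, with no overlap between any pair of groups. The other IDI1 probe set (204615_x_at) lay between 956 and 992 on the gedunin plus R1881 arrays, 303 and 339 under the R1881 label, and 993 and 1013 under the vehicle label. Both IDI1 identifiers end in _x_at, which marks probes that may also match other transcripts.

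SQLE, the squalene epoxidase gene, has 3 probe sets. The brightest by its mean log2 value (213577_at) measured 198, 184 and 186 on the gedunin plus R1881 arrays, 136, 111 and 102 on the arrays labelled R1881, and 172, 146 and 177 on those labelled vehicle. The gedunin arrays were highest and the arrays labelled R1881 lowest, with no overlap. A second SQLE probe set of similar brightness (209218_at) measured 226, 202 and 209 on the gedunin plus R1881 arrays, 83.9, 95.2 and 85.9 on the arrays labelled R1881, and 181, 179 and 171 on those labelled vehicle. It gave the same order of groups with a wider gap. The SQLE probe set 213562_s_at was dim, between 28.7 and 34.1 on the gedunin plus R1881 arrays, 19.2 and 19.7 under the R1881 label, and 25.6 and 25.6 under the vehicle label, which is under the lowest array median of 52.4 throughout, and its 3 vehicle values are equal in the deposited table. Its folds are therefore approximate.

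DHCR7 and TM7SF2 encode related sterol reductases and went opposite ways. DHCR7 (201790_s_at) measured 402, 393 and 425 on the gedunin plus R1881 arrays, 278, 238 and 259 on the arrays labelled R1881, and 409, 451 and 402 on those labelled vehicle. The arrays labelled R1881 were lowest and the other groups overlapped. Its second probe set (201791_s_at) lay between 156 and 171 on the gedunin plus R1881 arrays, 95.5 and 103 under the R1881 label, and 161 and 176 under the vehicle label. TM7SF2 is read by a single probe set (210130_s_at), which measured 969.6, 1010.1 and 1083 on the gedunin plus R1881 arrays, 1388, 1476 and 1246 on the arrays labelled R1881, and 696, 725 and 616 on those labelled vehicle. Here the arrays labelled R1881 were highest and those labelled vehicle lowest, the gedunin arrays lay between, and no pair of groups overlapped.

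INSIG1, the sterol-sensing brake on SREBP transport, had the widest range of the members on the log2 scale. Its brightest probe set (201626_at) measured 973, 853 and 875 on the gedunin plus R1881 arrays, 238, 234 and 262 on the arrays labelled R1881, and 1014, 1067 and 1006 on those labelled vehicle. The arrays labelled R1881 were far below the rest, and the gedunin arrays lay just under those labelled vehicle. The INSIG1 probe set 201627_s_at lay between 346 and 375 on the gedunin plus R1881 arrays, 112 and 159 under the R1881 label, and 467 and 524 under the vehicle label. The remaining INSIG1 probe set (201625_s_at) lay between 285 and 334 on the gedunin plus R1881 arrays, 85.9 and 110.3 under the R1881 label, and 311 and 346 under the vehicle label, so its gedunin and vehicle groups overlapped while those of the other INSIG1 probe sets did not. Over the 13 probe sets and 3 groups, the SD of 3 arrays on the log2 scale had a median of 0.09 and a maximum of 0.26.

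**Figure D1:**
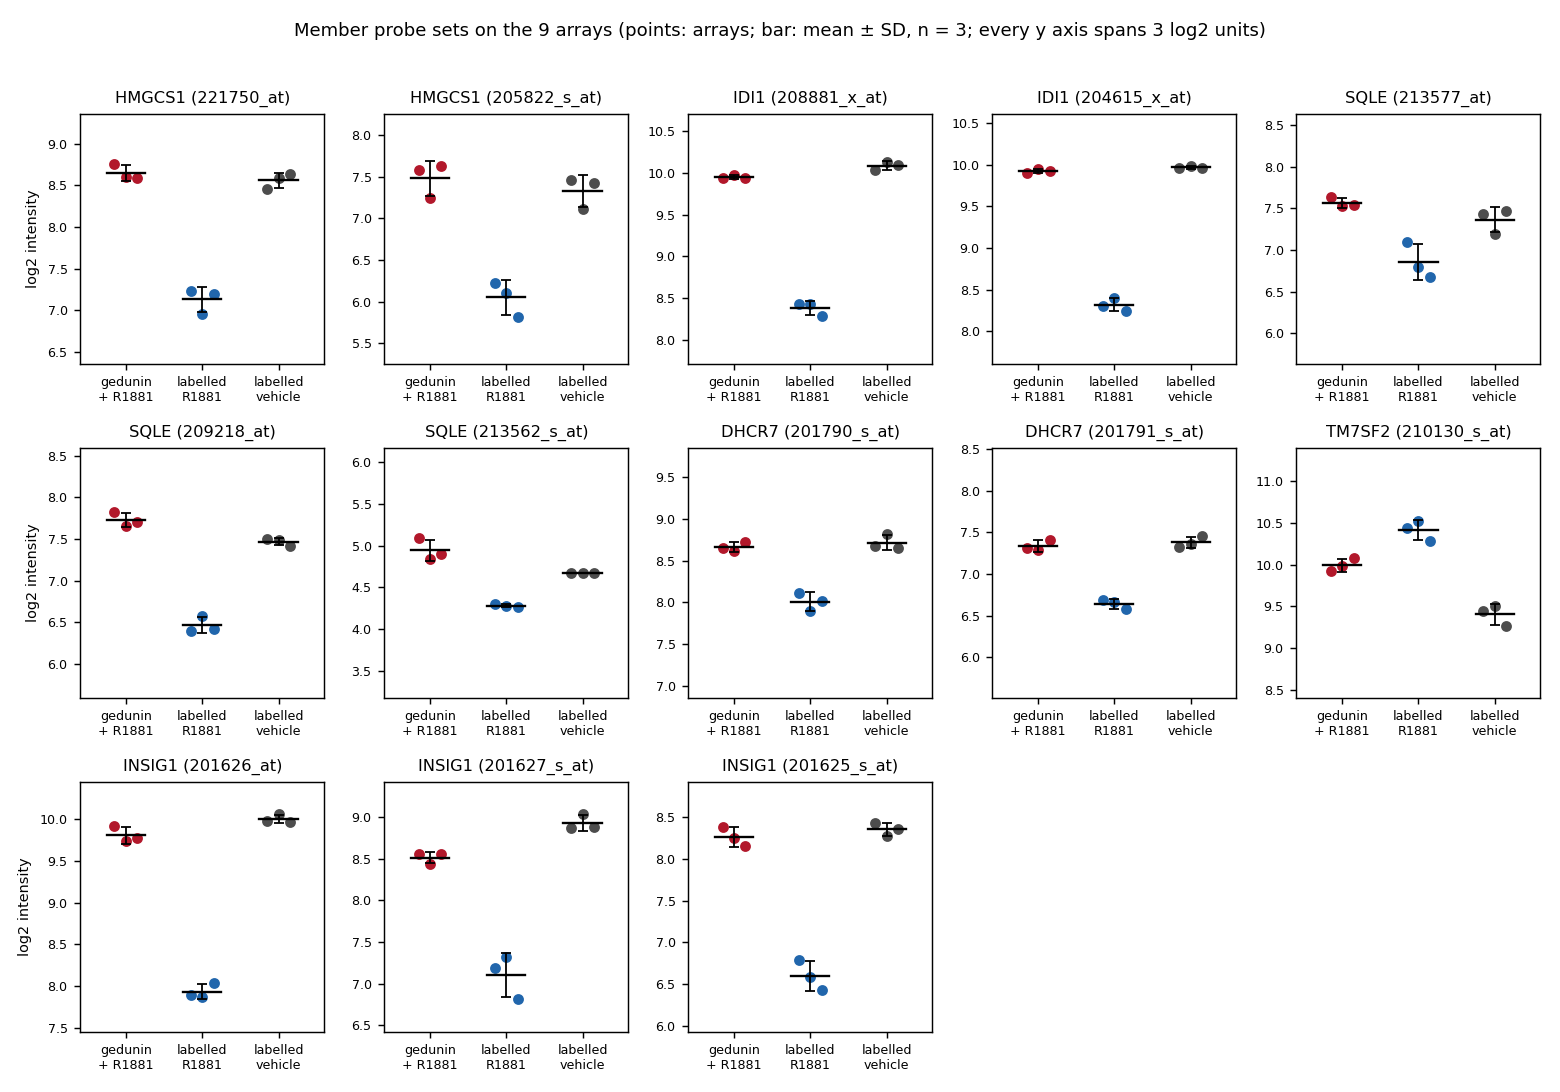
Log2 intensity (y axis, 3 log2 units in every panel) of the 13 member probe sets in the gedunin plus R1881, labelled R1881 and labelled vehicle groups (points, arrays; bars, mean ± SD, n = 3). In 12 panels the arrays labelled R1881 are lowest, and in the TM7SF2 panel they are highest at 1388, 1476 and 1246 on the intensity scale.

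The first comparison sets the arrays labelled R1881 against those labelled vehicle. By its labels it addresses the response to androgen after hormone withdrawal, a reading that the androgen-induced genes contradict. All probe sets of HMGCS1, IDI1, SQLE, DHCR7 and INSIG1 were lower under the R1881 label and that of TM7SF2 was higher. In limma with Benjamini-Hochberg adjustment over 22215 probe sets, 12 of the 13 were lower and 1 higher. The groups did not overlap in 13 of the 13, against 36.8% of all probe sets. Of all probe sets 27.0% were called, 12.2% lower and 14.8% higher. The median log2 fold change was -1.28 over the 13 member probe sets and 0.00 over all probe sets. Genes with several probe sets weigh more in the former, and over the 6 genes by brightest probe set it was -1.07. INSIG1 was 4.21-fold lower, at -2.07 ± 0.07 on the log2 scale (SE, adjusted p = 1.7e-10), and this was the change ranked 123 by size among the 22215. IDI1 was 3.28-fold lower (-1.71 ± 0.06, adjusted p = 2.62e-10) and HMGCS1 2.69-fold lower (-1.43 ± 0.08, adjusted p = 3.36e-08). The smaller differences were those of DHCR7, 1.63-fold lower (-0.70 ± 0.07, adjusted p = 6.23e-06), and SQLE, 1.42-fold lower by the brightest probe set (-0.51 ± 0.10, adjusted p = 0.00201). TM7SF2 was 2.02-fold higher (1.01 ± 0.08, adjusted p = 6.66e-07). If the arrays labelled R1881 date to 6 h, the time of treatment and the labelled treatment cannot be told apart here, since the vehicle label says 24 h.

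Probe sets of a gene differed little for IDI1 (log2 fold changes -1.71 and -1.65), DHCR7 (-0.70 and -0.74) and HMGCS1 (-1.43 and -1.28). Those of INSIG1 ran from -2.07 to -1.76. Those of SQLE were 2.01-fold lower for 209218_at, 1.42-fold for 213577_at and 1.32-fold for the dim 213562_s_at. The difference between SQLE probe sets was not tested.

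The second comparison sets gedunin plus R1881 against the R1881 label. By its labels it asks what gedunin does beside androgen. The androgen-induced genes contradict this reading too, and with the labels exchanged the third comparison would ask it instead. The second shares the arrays labelled R1881 with the first, so opposite signs in the 2 comparisons are not independent of each other. INSIG1, IDI1, HMGCS1, SQLE and DHCR7 were higher on the gedunin arrays and TM7SF2 was lower. By limma 12 of the 13 probe sets were higher and 1 lower (median 1.41), where 24.3% of all probe sets were called (12.4% higher and 11.9% lower, median -0.01). Over the 6 member genes by brightest probe set the median was 1.11. The groups did not overlap in 13 of the 13, against 34.6% of all probe sets. INSIG1 was 3.68-fold higher, at 1.88 ± 0.07 on the log2 scale (SE, adjusted p = 7.67e-10), which ranked 82 by size. IDI1 was 2.98-fold higher (adjusted p = 1.08e-09) and HMGCS1 2.86-fold higher (adjusted p = 3.08e-08). DHCR7 was 1.58-fold higher (adjusted p = 1.43e-05). SQLE was 1.64-fold higher by its brightest probe set (adjusted p = 0.000166) and 2.40-fold higher by 209218_at (adjusted p = 2.17e-08). TM7SF2 was 1.34-fold lower (-0.42 ± 0.08, adjusted p = 0.00149). Should the arrays labelled R1881 date to 6 h, the time of treatment and gedunin cannot be told apart in this comparison.

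**Figure D2:**
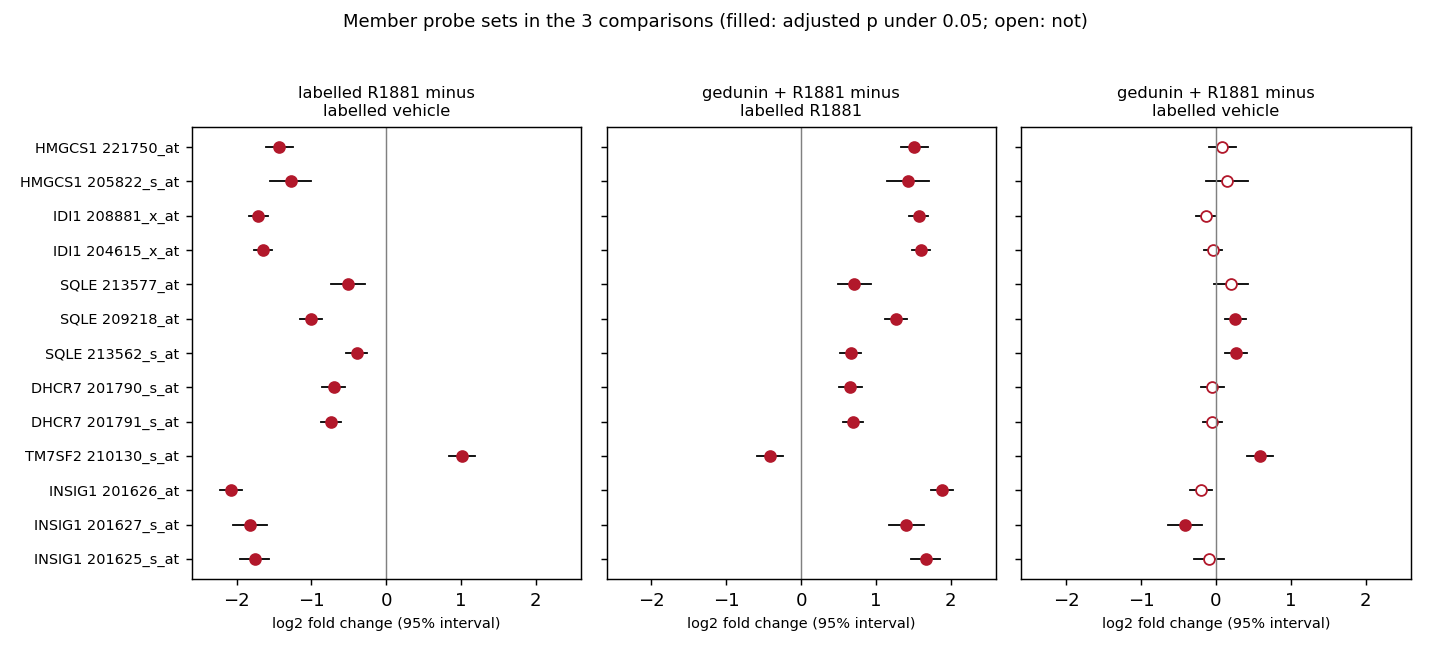
Log2 fold changes (x axis) of the 13 member probe sets (y axis) in the 3 comparisons, with 95% intervals from limma. In the left panel INSIG1 201626_at is lowest at -2.07 and TM7SF2 is at 1.01. In the middle panel they are at 1.88 and -0.42, and in the right panel at -0.20 and 0.59.

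The third comparison sets gedunin plus R1881 against the vehicle label. By its labels R1881 and gedunin differ together here, so their parts cannot be told apart. With the R1881 and vehicle labels exchanged, it would ask what gedunin does beside androgen. This comparison shares arrays with both others. HMGCS1, IDI1 and DHCR7 did not pass the test in either probe set. TM7SF2 was higher, 2 of 3 SQLE probe sets were higher and 1 of 3 INSIG1 probe sets was lower. Of the 13 probe sets 3 were higher and 1 lower by limma (median -0.04), where 23.5% of all probe sets were called (12.9% higher and 10.6% lower, median -0.01). The groups did not overlap in 8 of the 13, against 35.5% of all probe sets. The share of members called is thus near that of all probe sets. HMGCS1 was at 0.09 on the log2 scale (95% interval -0.09 to 0.26), IDI1 at -0.14 (95% interval -0.27 to -0.01, adjusted p = 0.122) and DHCR7 at -0.05 (95% interval -0.20 to 0.11). These intervals bound the difference and do not show that the levels were equal. TM7SF2 was 1.51-fold higher on the gedunin arrays (0.59 ± 0.08, SE, adjusted p = 0.000113).

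For SQLE, 209218_at (0.26, adjusted p = 0.0112) and the dim 213562_s_at (0.27, adjusted p = 0.00864) were called higher, and 213577_at (0.20, adjusted p = 0.203) was not. Without gedunin plus R1881 replicate 1 the call of 209218_at was lost (0.21, adjusted p = 0.0588). For INSIG1, 201627_s_at was called lower (-0.41, adjusted p = 0.0125), while 201626_at (-0.20, adjusted p = 0.0561) and 201625_s_at (-0.09, adjusted p = 0.549) were not. The call of 201627_s_at was lost without gedunin plus R1881 replicate 2 (-0.38, adjusted p = 0.0558) or vehicle replicate 2 (-0.36, adjusted p = 0.0572). The brightest INSIG1 probe set passed under other settings, for example at adjusted p = 0.0222 with a trended, robust variance prior. By level, the order for TM7SF2 was labelled R1881, gedunin plus R1881, labelled vehicle, with each neighbour apart. For HMGCS1 and DHCR7 the gedunin and vehicle groups are neighbours that did not differ beyond their spread.

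**Figure D3:**
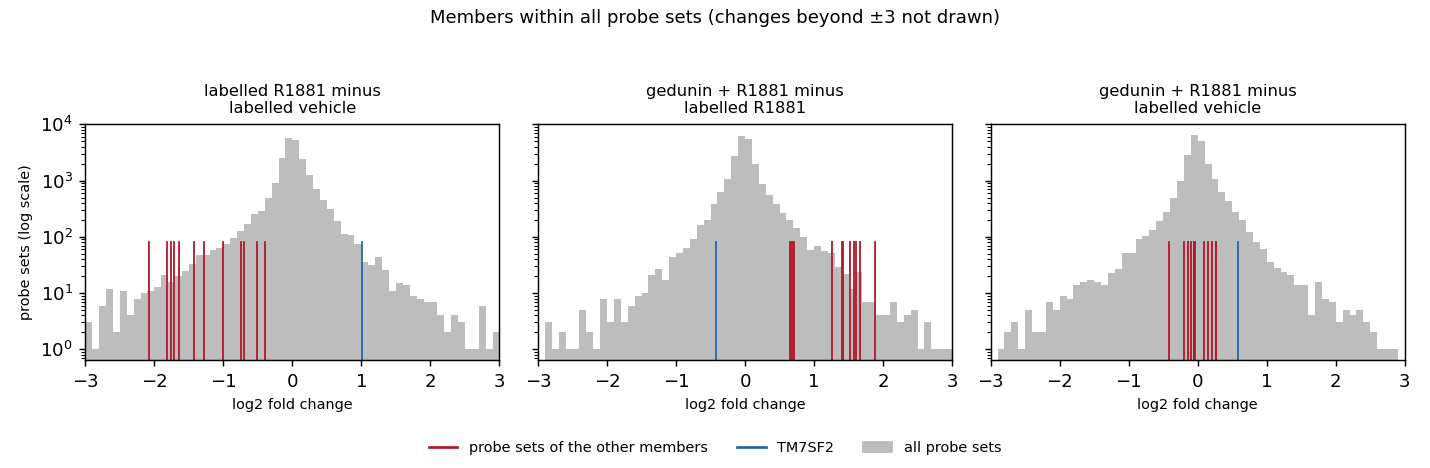
Number of probe sets (y axis, log scale) by log2 fold change (x axis) for all 22215 probe sets (grey), with the 12 probe sets of HMGCS1, IDI1, SQLE, DHCR7 and INSIG1 (red) and the TM7SF2 probe set (blue). The red lines run from -2.07 to -0.40 in the left panel, 0.66 to 1.88 in the middle one and -0.41 to 0.27 in the right one.

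The rest of the pathway was described through 5 lists with 37 further genes, of which 29 were measured and each was read by its brightest probe set. The others are not analysed here. These lists too were chosen with earlier results of these data known, so their counts are descriptions only. In the first comparison 15 of 29 were lower and 3 higher (median -0.31), where 29.5% (16.3% higher and 13.2% lower) of all 11963 genes were called (median 0.00). In the second 16 were higher and 5 lower (median 0.30), where 26.7% (13.7% higher and 13.0% lower) of all genes were called (median -0.01). In the third 9 were higher and 10 lower (median -0.02), where 26.2% (14.8% higher and 11.4% lower) of all genes were called (median -0.01).

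In the mevalonate arm, which leads to the isoprenoids, 4 of 6 genes were lower and 0 higher under the R1881 label than under the vehicle label. They were FDPS, farnesyl diphosphate synthase, at -0.67 (adjusted p = 3.74e-06), ACAT2 at -0.54, MVD at -0.43 and GGPS1, geranylgeranyl diphosphate synthase, at -0.39. Gedunin plus R1881 against the R1881 label gave 3 higher and 0 lower, with FDPS at 0.94 (adjusted p = 2.33e-07), MVD at 0.39 and GGPS1 at 0.32. ACAT2, a thiolase that makes the substrate of HMGCS1, was at 0.14 and did not pass (adjusted p = 0.117). Against the vehicle label the gedunin arrays were lower for ACAT2 (-0.40) and higher for FDPS (0.26). Probe sets disagreed for GGPS1, whose dimmer one was at -0.18 in the first comparison and not called. They also did for MVK, mevalonate kinase, named after its values were seen, with 0.02 for the brightest (not called) and -0.53 and -0.41 for the others (both lower).

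In the sterol arm, from lanosterol onward, 5 of 7 genes were lower and 1 higher under the R1881 label than under the vehicle label. MSMO1, the sterol C4 methyl oxidase, measured 1230.0, 1201 and 1159 on the gedunin plus R1881 arrays, 441, 436 and 464 on the arrays labelled R1881, and 845, 918 and 887 on those labelled vehicle. The gedunin arrays were highest and the arrays labelled R1881 lowest, with no overlap. Its log2 fold changes were -0.98, 1.42 and 0.44 over the 3 comparisons in turn (adjusted p = 3.21e-08, 1.87e-09 and 7.49e-05). SC5D, the sterol C5 desaturase, had the same order of groups (-0.91, 1.14 and 0.23). EBP, a sterol isomerase (-0.86), and NSDHL, a sterol dehydrogenase (-0.73), were also lower in the first comparison. In the second comparison all 7 measured genes of this arm were higher by their brightest probe sets. EBP was at 0.47, LSS, lanosterol synthase, at 0.47, and NSDHL close to the threshold (0.27, adjusted p = 0.0474). Of their other probe sets in this comparison, those of LSS at 0.76, EBP at 0.38 and SC5D at 0.38 were called higher. Those of NSDHL at 0.19, EBP at 0.04 and LSS at 0.04 were not called. In the third comparison 4 of the 7 genes were higher and 3 lower, with HSD17B7 at 0.50 and NSDHL at -0.46. HSD17B7 has only 1 probe set, an _x_at one, which may also match other transcripts. The other probe sets of the genes of this arm did not all match in the first comparison. Those of LSS gave -1.12 and -0.39 beside -0.67 for the brightest, that of NSDHL -0.56, and 1 of EBP -0.65, all called lower. The remaining ones of EBP (-0.10) and SC5D (-0.10) were not called.

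LBR, whose product like that of TM7SF2 is a C14 sterol reductase, was higher under the R1881 label than under the vehicle label by 0.33 (adjusted p = 0.00593). It measured 126, 110.4 and 133 on the gedunin plus R1881 arrays, 93.9, 89.9 and 102 on the arrays labelled R1881, and 77.3, 72.8 and 77.9 on those labelled vehicle. Unlike TM7SF2, it was highest on the gedunin arrays, at 0.37 against the R1881 label (adjusted p = 0.00285) and 0.69 against the vehicle label (adjusted p = 1.92e-05).

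Among the genes of SREBP processing and sterol sensing, SCAP, the SREBP escort, measured 196, 174 and 196 on the gedunin plus R1881 arrays, 126, 120.2 and 117 on the arrays labelled R1881, and 305, 289 and 307 on those labelled vehicle. It was lowest under the R1881 label and the gedunin arrays lay between, at -1.31, 0.64 and -0.67 over the 3 comparisons in turn (adjusted p = 5.86e-09, 6.89e-06 and 4.73e-06). SREBF2, which encodes the SREBP most tied to cholesterol genes, followed this order (-0.78, 0.48 and -0.30), though its dimmer probe set was at -0.14 in the third comparison and not called. SREBF1, whose products favour fatty acid genes, measured 156, 148 and 171 on the gedunin plus R1881 arrays, 185, 201 and 209 on the arrays labelled R1881, and 274, 236 and 274 on those labelled vehicle. It was lowest on the gedunin arrays, at -0.33 against the R1881 label (adjusted p = 0.00791) and -0.72 against the vehicle label (adjusted p = 1.81e-05).

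INSIG2, the paralog of INSIG1, ran in the opposite order to it. It measured 133, 118 and 127 on the gedunin plus R1881 arrays, 167, 147 and 182 on the arrays labelled R1881, and 79.0, 64.9 and 59.8 on those labelled vehicle. It was 2.44-fold higher under the R1881 label than under the vehicle label (1.29, adjusted p = 6.71e-07), lower with gedunin than under the R1881 label (-0.39, adjusted p = 0.0124) and higher with gedunin than under the vehicle label (0.90, adjusted p = 2.51e-05). MBTPS2, the site-2 protease gene, was lower on the gedunin arrays than under the vehicle label (-0.43). In all, 3 of 7 genes of this list were lower and 1 higher in the first comparison, 2 higher and 3 lower in the second, and 1 higher and 4 lower in the third.

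Of 4 genes of uptake and transport, NPC1, which exports cholesterol from lysosomes, measured 432, 407 and 415 on the gedunin plus R1881 arrays, 108, 132 and 112 on the arrays labelled R1881, and 215, 232 and 213 on those labelled vehicle. The gedunin arrays were highest, 3.57-fold over the R1881 label (1.84, adjusted p = 2.19e-09) and 1.90-fold over the vehicle label (0.93, adjusted p = 1.16e-06). A second, dim NPC1 probe set was at 0.28 and 0.15 in these comparisons, and only the first of these values passed. NPC2, its partner in the lysosome, rose by 0.36 and 0.48 in these comparisons. In the second comparison SCARB1, a lipoprotein receptor gene, was at 0.52 by its brightest probe set (0.05 and 0.04 by dim ones, not called) and MYLIP, a ubiquitin ligase gene, at -0.49. MYLIP was dim, averaging 42.3 on the gedunin plus R1881 arrays and 59.3 under the R1881 label, so its fold is approximate. The list had 1 higher and 2 lower in the first comparison, 3 and 1 in the second, and 2 and 0 in the third. Of 5 genes of efflux and esterification, 0 were higher and 1 lower in the first comparison, 1 and 1 in the second, and 1 and 2 in the third. SOAT1, which esterifies cholesterol, was at -0.83, 0.30 and -0.53. ABCG1 averaged under the lowest array median in every group, so its folds are approximate, and its probe sets gave 0.16 and 0.96 in the first comparison. NR1H3, the 1 gene of this list higher in the third comparison (0.29, adjusted p = 0.0128), also averaged under that median in every group.

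**Figure D4:**
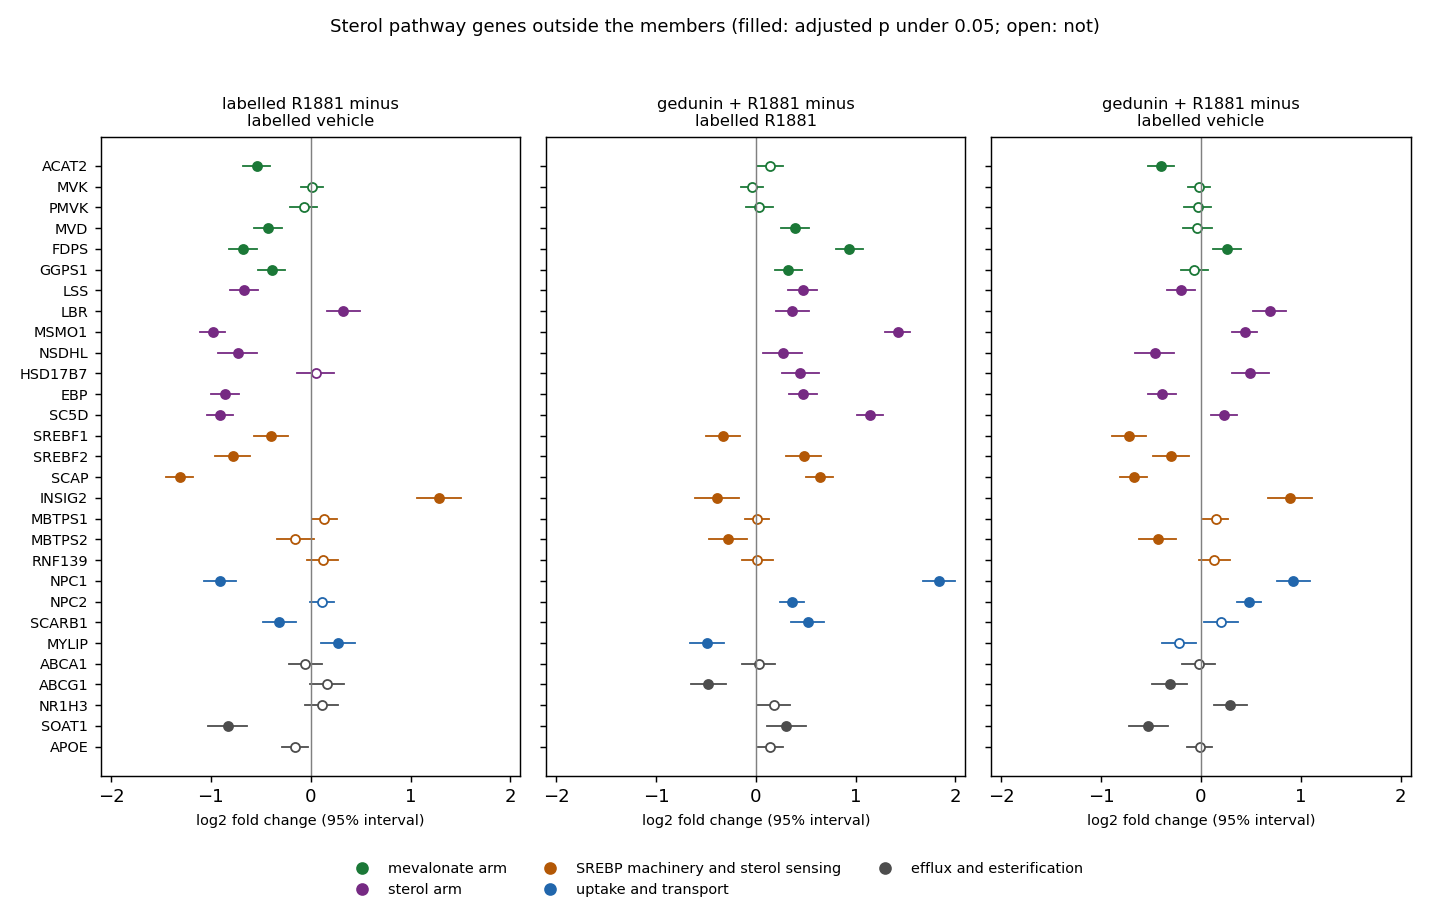
Log2 fold changes (x axis) of the 29 measured pathway genes outside the members (y axis), coloured by list, with 95% intervals from limma. MSMO1 and NPC1 stand out in the middle panel at 1.42 and 1.84, and INSIG2 lies opposite to SCAP in the left panel, at 1.29 against -1.31.

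The genes with the pattern most like a member's were sought among 603 other genes whose group means spanned at least 1 on the log2 scale. Each gene was read by its brightest probe set. Likeness is Pearson's r over the 9 arrays, which share group differences, so it is a description only. For INSIG1 they were SEC61B (0.999), GFPT1 (0.998) and SPCS3 (0.997). For IDI1 they were SSR2 (0.998), MYDGF (0.997) and SERP1 (0.997), for HMGCS1 DERL2 (0.993), MCFD2 (0.992) and ERP44 (0.991), and for DHCR7 DERL2 (0.989), SERP1 (0.987) and GFPT1 (0.986). SQLE was closest to DNAJC3 (0.933), ERP44 (0.930) and VEGFA (0.929), and TM7SF2 to GULP1 (0.982), SSBP2 (0.981) and NUP93 (0.979). The values of SQLE rest on 213577_at, and its other probe set of similar brightness (209218_at) was not compared in this way. SEC61B, nearest to INSIG1, averaged 3797 on the gedunin plus R1881 arrays, 1985 under the R1881 label and 4017 under the vehicle label.

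Among the members themselves, r over the 9 arrays lay between 0.90 and 0.998 for the 9 pairs of probe sets of 1 gene. It lay between 0.78 and 0.99 for the 57 pairs of different genes without TM7SF2, and between -0.86 and -0.50 for the 12 pairs with TM7SF2. Once each group's mean was removed, the medians of these 3 sets were 0.17, 0.14 and 0.17. Their ranges were then wide, at -0.36 to 0.77, -0.66 to 0.87 and -0.64 to 0.74 in the same order.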

How the data were processed

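RNA was measured in 9 LNCaP samples, marked as biological replicates with no record of separate cultures, so p-values measure the spread between these samples. The authors deposited linear intensity values (8.63 to 20189), made with RMA per the submitters' processing notes. This method makes the arrays' distributions alike, so shifts in overall RNA content are not visible. Its version is not given in the sources used here. Of 22277 probe sets, 62 controls were left out, and 19064 had 1 symbol, 1043 several and 2108 none.

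Log2 intensities of 22215 probe sets were fitted with limma 3.58.1 in R 4.3.3 (1 coefficient per group over all 9 arrays, contrasts, eBayes without trend, 6.08 prior degrees of freedom). P-values are two-sided and were adjusted over all probe sets (Benjamini-Hochberg, threshold 0.05). Counts over genes read the same adjusted values at each gene's brightest probe set. The fit was tested on simulated data. Single members were not tested by permutation, since 3 arrays against 3 cannot go below 0.1. Members and lists were chosen with earlier results of these data known. Named genes are all members, up to 4 called genes with the largest change per list and comparison, 7 fixed pathway genes, 4 androgen genes and the 3 genes most like each member. Alternatives were another variance prior, 1 probe set per gene, no dim probe sets, an offset of 50, quantile normalization, median centring, only the groups compared, the replicate number as a block, other probe sets for the lists and leaving out each array. Precision is limited by 3 arrays per group.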

Additional observations from a re-analysis of the deposited data

How the results depend on the processing

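In the first and second comparisons all 13 member probe sets were called, and 13 also without any 1 array. With 1 probe set per gene, which leaves 6 member probe sets to count, 6 were called in each of these comparisons and 2 in the third, where INSIG1 201626_at joined TM7SF2. In the third comparison the count of 4 became 3 to 5 without 1 array and 2 to 6 under the other settings. The other variance prior, 1 probe set per gene, no dim probe sets, only the groups compared and the replicate block leave each fold as it is. Direction could therefore not change under these settings. Among 213 refitted member values per comparison, direction and call held for all in the first and the second. In the third, 8 gained and 3 lost the call, and 1 changed sign, DHCR7 201790_s_at, not called in either case, which ran from -0.0802 to 0.0034 over the fits without 1 array, with the change of sign on leaving out vehicle replicate 2. Counts of pathway genes lay between 16 and 21 over the comparisons and settings other than leaving out an array. Without 1 array they were 17 to 19 in the first comparison, 18 to 21 in the second and 16 to 19 in the third. Of 9 same-numbered pairs of samples, 2 had deviations correlated above 0.1, as had 3 of the 18 other pairs (ranges -0.10 to 0.14 and -0.15 to 0.16). The 2 same-numbered ones were between labelled R1881 and labelled vehicle. With 3 arrays a group, these values cannot decide whether replicate numbers pair the samples. With the replicate number as a block, the count of called member probe sets was 13, 13 and 4, and that of pathway genes 18, 20 and 20. SQLE 213562_s_at has no value with dim probe sets left out, and its low signal limits its folds.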
